A study of Mus musculus with 5 samples.

Results

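This account concerns 38 genes that mark cells of the blood vessel wall, microglia and the meninges, followed in GFP-sorted cells of the embryonic mouse cortex after Ptf1a misexpression. The genes were taken by symbol from the authors' deposited gene table, where all 38 were found among 23234 gene rows: 14 endothelial markers, 8 mural markers (pericytes and vascular smooth muscle), 11 microglial markers and 5 meningeal markers. The Ptf1a group consisted of 3 samples of CD1 cortical cells from embryos (E12.5) whose cortices received, by electroporation, a construct with both Ptf1a and GFP. The GFP-only group consisted of 2 samples of CD1 cortical cells that received at the same age a construct with GFP alone. Cells of both groups were harvested at E15.5 and purified by fluorescence, each sample pooling 3 to 6 brains, and the labels call them pyramidal cells. The promoter of the constructs was not given in the sources used here.

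Blood vessels of the brain are lined by endothelial cells, which are joined by tight and adherens junctions and wrapped by mural cells. Endothelial growth and stability are set by VEGF and angiopoietin ligands acting on receptor tyrosine kinases, and mural cells are recruited through PDGF-B and its receptor. Microglia are the resident macrophages of the brain and depend on CSF1 receptor signalling, and the meninges are fibroblast-rich sheets that cover the cortex. None of these cells descends from the ventricular progenitors that make pyramidal neurons. Ptf1a is a basic helix-loop-helix factor that binds E-boxes, and these sorted samples are bulk RNA, in which fewer cells of a type and less RNA per cell cannot be told apart.

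Levels are the authors' group values in FPKM, which are fragment counts scaled to transcript length and to library depth. The samples of each group had been merged into a single value per gene, so no value per sample and no SD can be given, and the depth per sample is unknown. The authors' deposited table marked 11876 rows as tested. The words rose and fell are used only where the deposited q from the authors' Cuffdiff test was under 0.05, in Ptf1a cells relative to GFP-only cells. As an error, an implied standard error (SE) was taken as the deposited log2 fold divided by the deposited test statistic. Ptf1a itself stood at 38.9 FPKM in Ptf1a cells and 0.210 FPKM in GFP-only cells. Of 15 genes fixed as markers of pyramidal identity, all tested, 1 rose (6.67%) and 9 fell (60.0%), against 18.7% risen and 19.1% fallen of all tested genes and 29.5% fallen of those at 5 FPKM or more. By a normal p of the authors' test statistic, 0 rose and 1 fell. The falls included the deep-layer factor Tbr1 (8.29 FPKM in Ptf1a cells and 15.1 FPKM in GFP-only cells), which is the fall that passed by the normal p, Mef2c (37.1 and 57.2 FPKM), Bcl11b (6.12 and 9.15 FPKM) and Cux1 (41.0 and 59.7 FPKM). Sox5 (28.6 FPKM in Ptf1a cells and 24.9 FPKM in GFP-only cells) and Emx1 (11.2 and 8.31 FPKM) were not called. The 15 genes summed to 1440 FPKM in Ptf1a cells and 2038 FPKM in GFP-only cells. Among them the most abundant, Neurod6, which the naming rule does not select, had 1190 FPKM in Ptf1a cells and 1717 FPKM in GFP-only cells.

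The 38 markers were weak in both groups. Their median was 0.783 FPKM in Ptf1a cells and 0.616 FPKM in GFP-only cells, against 4.95 and 4.67 FPKM over tested genes in Ptf1a and GFP-only cells. At least 1 FPKM was reached by 17 markers in Ptf1a cells and by 14 in GFP-only cells. In the higher of the 2 groups, 15 markers stayed under 0.5 FPKM, and these were the 15 rows without a test. Only Lgals1 in Ptf1a cells, and Lgals1, Egfl7, Ptgds and Tyrobp in GFP-only cells, exceeded the median of tested genes of their group.

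**Figure D1:**
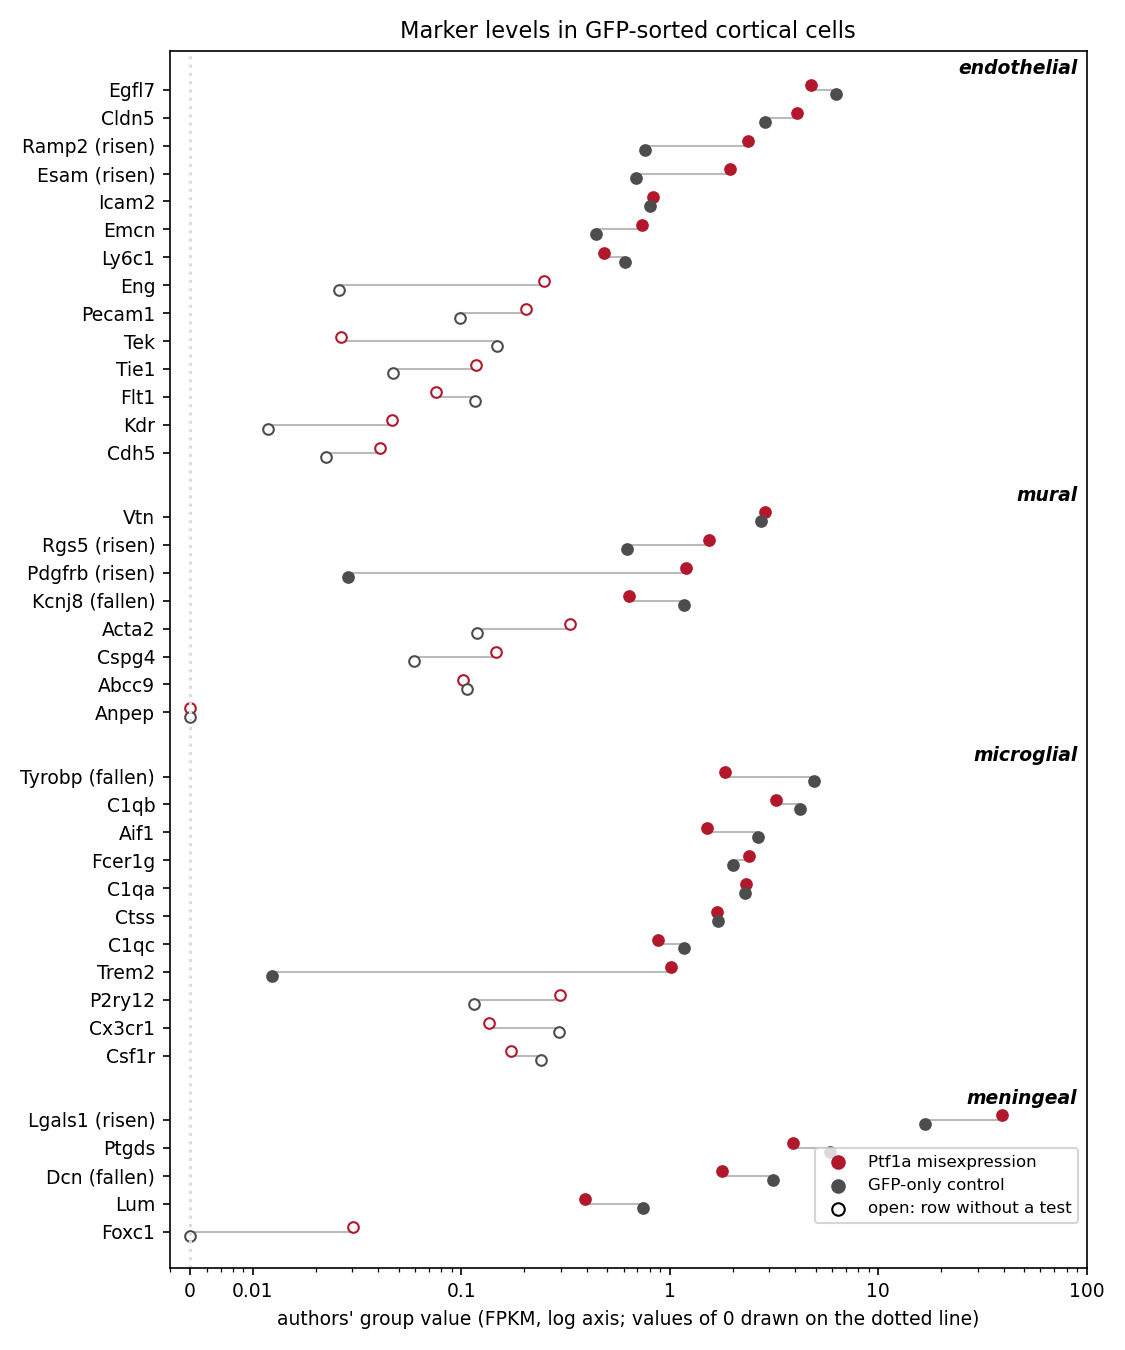
Group values of the 38 markers in FPKM on a log axis, with Ptf1a cells in red and GFP-only cells in grey, by cell class; open circles are rows without a test, and values of 0 lie on the dotted line. The levels spread from 0 for Anpep to 39.2 FPKM for Lgals1 in Ptf1a cells, and the 2 groups lie close together for most filled circles.

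Ptf1a misexpression was followed by a rise of 5 markers and a fall of 3 among the 23 that were tested. The risen were Esam and Ramp2 (endothelial), Pdgfrb and Rgs5 (mural) and Lgals1 (meningeal), and the fallen were Kcnj8 (mural), Tyrobp (microglial) and Dcn (meningeal). This is 34.8% of the tested markers, against 37.7% of all tested genes. By direction, 21.7% of the tested markers rose and 13.0% fell, against a background of 18.7% risen and 19.1% fallen. Since 20 of the 23 lay under 5 FPKM, where risen genes were more frequent in the whole table, the same shares were read there too: 20.0% of these markers rose and 15.0% fell, against 24.4% and 7.75% of tested genes under 5 FPKM (32.2% in either direction). By a normal p computed from the authors' test statistic, a stricter rule that called 6.12% of genes (3.31% risen and 2.81% fallen), only Pdgfrb and Lgals1 among the markers passed. Without a fold minimum, the shares of called markers by q thus lay near those of the table as a whole. With a 2-fold minimum added, 5 of the 23 rose and 1 fell, against 6.67% and 1.87% of all tested genes. On the log2(FPKM + 0.1) scale, the median difference (Ptf1a minus GFP-only) was 0.03 over the 23 tested markers and -0.01 over all tested genes. By class, the median over tested members was 0.50 for the 7 endothelial, 0.63 for the 4 mural, -0.20 for the 8 microglial and -0.67 for the 4 meningeal genes.

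**Figure D2:**
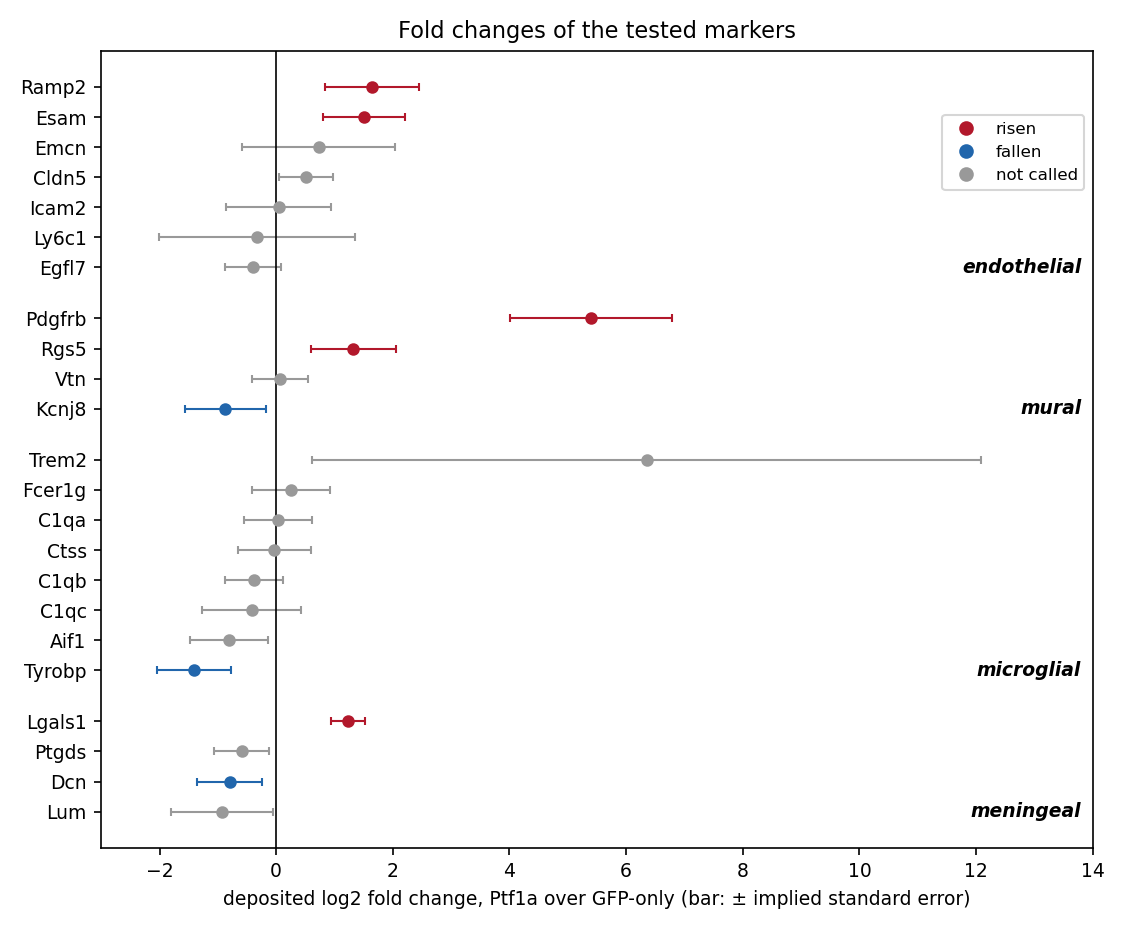
Deposited log2 fold change (Ptf1a over GFP-only) of the 23 tested markers by cell class, with bars of 1 implied SE on each side; red marks risen, blue fallen and grey uncalled genes. Pdgfrb at 5.40 is the risen gene farthest from 0, Tyrobp at -1.41 the fallen one, and the bar of Trem2 (SE 5.73) is the widest.

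Of the 14 endothelial markers, 7 were near 0 in both groups, and the other 7 had enough reads for a test. The receptors for VEGF, Kdr and Flt1, the angiopoietin receptor Tek and its relative Tie1, the junctional adhesion genes Cdh5 (VE-cadherin) and Pecam1, and the TGF-beta co-receptor Eng all lacked a test. Kdr stood at 0.0466 FPKM in Ptf1a cells and 0.0118 FPKM in GFP-only cells, and Cdh5 at 0.0406 and 0.0224 FPKM in Ptf1a and GFP-only cells. Tek stood at 0.0265 FPKM in Ptf1a cells and 0.149 FPKM in GFP-only cells, Tie1 at 0.118 and 0.0473 FPKM, and Flt1 at 0.0760 and 0.116 FPKM, in the same order of groups. Pecam1 had 0.205 FPKM in Ptf1a cells and 0.0989 FPKM in GFP-only cells. None of these 7 genes passed 0.248 FPKM, the value of Eng in Ptf1a cells, against 0.0259 FPKM in GFP-only cells. The Eng row shares its locus with Fpgs, a folate enzyme gene at 3.73 FPKM in Ptf1a cells and 4.52 FPKM in GFP-only cells, and strand was not stated, so reads of overlapping genes may not be separable.

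Of the 7 tested endothelial markers 2 rose (28.6%), against 18.7% of all tested genes and 24.4% of those under 5 FPKM. Esam encodes an immunoglobulin-like adhesion molecule of endothelial tight junctions (chromosome 9, 37335674 to 37345904, mm9). It stood at 1.95 FPKM in Ptf1a cells and 0.689 FPKM in GFP-only cells, a deposited log2 fold of 1.50 (implied SE 0.70, q = 3.29e-04). This q is the smallest value that the table gives and is shared by many genes, Lgals1 among them. By the normal p of its test statistic, Esam was not called (adjusted value 0.225). Ramp2 encodes the partner protein that turns the calcitonin receptor-like receptor into an adrenomedullin receptor (chromosome 11, 101107648 to 101109564, mm9). It stood at 2.37 FPKM in Ptf1a cells and 0.762 FPKM in GFP-only cells, a deposited log2 fold of 1.64 (implied SE 0.81, q = 0.0113). Esam and Ramp2 thus lay under 1 FPKM in GFP-only cells and above it in Ptf1a cells.

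The other 5 tested endothelial markers were not called. Egfl7, a secreted vascular protein, had 4.76 FPKM in Ptf1a cells and 6.25 FPKM in GFP-only cells (q = 0.146). Cldn5, the main tight junction claudin of the blood-brain barrier, had 4.09 FPKM in Ptf1a cells and 2.87 FPKM in GFP-only cells (q = 0.0951). Icam2, an adhesion molecule of endothelium, had 0.828 and 0.807 FPKM, and the sialomucin Emcn had 0.738 and 0.444 FPKM, each with Ptf1a cells first. Ly6c1 had 0.485 FPKM in Ptf1a cells and 0.609 FPKM in GFP-only cells, with its close paralog Ly6c2 at 0.0126 and 0.0396 FPKM; how the authors' counting divided reads between such copies was not stated. No endothelial marker fell by the Cuffdiff q, by an unadjusted p under 0.05 (0 genes) or by a normal p of the test statistic (0 genes). By the Cuffdiff q 19.1% of all tested genes fell, and 7.75% of those under 5 FPKM, where 6 of the 7 lay. By the normal p 2.81% fell. A count of 0 among 7 genes therefore does not set the class apart. The whole class summed to 15.98 FPKM in Ptf1a cells and 12.89 FPKM in GFP-only cells, or 11.23 and 6.65 FPKM without its strongest member, Egfl7.

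Mural markers moved in both directions. Pdgfrb, the receptor through which PDGF-B recruits pericytes (chromosome 18, 61204804 to 61244721, mm9), stood at 1.20 FPKM in Ptf1a cells and 0.0286 FPKM in GFP-only cells. Its deposited log2 fold was 5.40 (implied SE 1.39, q = 0.00161), and on the log2(FPKM + 0.1) scale the difference was 3.34. Rgs5, a regulator of G protein signalling typical of pericytes (chromosome 1, 171585632 to 171623657, mm9), stood at 1.55 FPKM in Ptf1a cells and 0.623 FPKM in GFP-only cells, a deposited log2 fold of 1.32 (implied SE 0.73, q = 0.00409). Kcnj8 went the other way. It encodes the pore of a potassium channel gated by ATP in pericytes and smooth muscle (chromosome 6, 142513459 to 142519876, mm9) and stood at 0.639 FPKM in Ptf1a cells and 1.17 FPKM in GFP-only cells, a deposited log2 fold of -0.87 (implied SE 0.69, q = 0.0367). Abcc9, the regulatory subunit of the same channel, lies 16.5 kb away and had 0.102 FPKM in Ptf1a cells and 0.107 FPKM in GFP-only cells, without a test.

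Vtn, the secreted adhesion protein vitronectin, was the most abundant mural marker and was not called, with 2.87 FPKM in Ptf1a cells and 2.75 FPKM in GFP-only cells (q = 0.860). The smooth muscle actin gene Acta2 (0.331 and 0.119 FPKM in Ptf1a and GFP-only cells) and the proteoglycan gene Cspg4, or NG2 (0.147 and 0.0590 FPKM), had no test. The aminopeptidase gene Anpep was listed at 0 in both groups. The class summed to 6.85 FPKM in Ptf1a cells and 4.85 FPKM in GFP-only cells, or 3.98 and 2.11 FPKM without Vtn. Within it, 2 of 4 tested genes rose and 1 fell, against 18.7% risen and 19.1% fallen of all tested genes. All 4 lay under 5 FPKM, where 24.4% of tested genes rose and 7.75% fell. By the normal p, 1 mural marker rose (Pdgfrb) and 0 fell.

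The upstream sequences of Rgs5 and Kcnj8 are given because these tested mural markers moved in opposite directions, and because the misexpressed factor binds E-boxes. They hold the 250 bases before the annotated gene start, from RefSeq on GRCm38.p6 (a later build than the mm9 of the table), 5′ to 3′ on the gene's strand. Capitals mark each match to the E-box letters CANNTG, which read the same on both strands. Rgs5 is at chr1:169655251-169655500 (plus strand) and Kcnj8 at chr6:142571615-142571864 (minus strand).
Rgs5: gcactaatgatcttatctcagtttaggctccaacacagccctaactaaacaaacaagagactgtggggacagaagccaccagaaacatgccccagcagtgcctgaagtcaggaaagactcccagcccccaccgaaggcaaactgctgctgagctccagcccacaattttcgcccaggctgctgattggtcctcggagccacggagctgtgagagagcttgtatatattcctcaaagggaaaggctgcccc
Kcnj8: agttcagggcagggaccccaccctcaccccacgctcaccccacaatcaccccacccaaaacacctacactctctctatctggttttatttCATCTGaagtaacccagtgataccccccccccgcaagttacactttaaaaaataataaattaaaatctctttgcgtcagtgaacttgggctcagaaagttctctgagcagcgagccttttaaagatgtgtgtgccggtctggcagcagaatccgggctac
The risen gene, Rgs5, had 0 matches in this window and the fallen gene, Kcnj8, had 1. Such letters are common: 66.2% of all 32851 windows of this length held at least 1 match, as did 23 of the 29 entries (79.3%) that represent 26 of the markers. The letters TGGGAA, which the Rbpj-type subunits of the Ptf1a complex recognise, were searched on both strands; neither gene had a match, against 21.6% of all windows and 24.1% of the marker entries. Matches of letters are a description and do not show binding. No entry was given for C1qa, Cdh5, Csf1r, Dcn, Esam, Icam2, Lgals1, Lum, Pdgfrb, Pecam1, Ramp2 and Tyrobp.

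Microglial markers were weak but measurable, and 1 of the 8 tested fell. Tyrobp, the signalling adaptor DAP12 (chromosome 7, 31198807 to 31202598, mm9), stood at 1.85 FPKM in Ptf1a cells and 4.90 FPKM in GFP-only cells, a deposited log2 fold of -1.41 (implied SE 0.64, q = 0.00970). Fcer1g, a related adaptor of Fc receptors, was not called, with 2.40 FPKM in Ptf1a cells and 2.00 FPKM in GFP-only cells (q = 0.640). Trem2, the lipid-sensing receptor that signals through Tyrobp, had 1.01 FPKM in Ptf1a cells and 0.0124 FPKM in GFP-only cells. Its deposited log2 fold of 6.35 exceeds that of Pdgfrb, but with an implied SE of 5.73 it was not called (q = 0.381).

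The complement genes C1qa, C1qb and C1qc, whose products form the C1q molecule, lie side by side on chromosome 4 with gaps of 3.62 and 3.00 kb. C1qb had 3.24 FPKM in Ptf1a cells and 4.20 FPKM in GFP-only cells, C1qa had 2.33 and 2.29 FPKM, and C1qc had 0.874 and 1.17 FPKM. None of the 3 was called (q = 0.252, 0.957 and 0.487 for C1qb, C1qa and C1qc). The implied SE, 0.49 to 0.85 on the log2 scale, exceeded each of their folds. Aif1, the calcium-binding protein Iba1, had 1.51 FPKM in Ptf1a cells and 2.65 FPKM in GFP-only cells (q = 0.0811), and the lysosomal protease gene Ctss had 1.68 and 1.71 FPKM (q = 0.957).

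Among the microglial receptors, Cx3cr1, Csf1r and P2ry12 had no test, whereas Trem2 was tested. The fractalkine receptor Cx3cr1 stood at 0.136 FPKM in Ptf1a cells and 0.294 FPKM in GFP-only cells, and Csf1r at 0.174 and 0.241 FPKM. The purinergic receptor P2ry12 had 0.296 FPKM in Ptf1a cells and 0.115 FPKM in GFP-only cells, in a locus that the table shares with 7 other genes. Csf1r lies 20.5 kb from Pdgfrb on chromosome 18, and of these neighbours the mural receptor rose while the microglial one had no test. No microglial marker rose by the Cuffdiff q, by an unadjusted p under 0.05 (0 genes) or by a normal p of the test statistic (0 genes). By the Cuffdiff q 18.7% of all tested genes rose, and 24.4% of those under 5 FPKM, where all 8 tested microglial markers lay. By the normal p 3.31% rose. With 8 genes tested, a count of 0 is a weak description. The log2 ratio of the summed levels of the class, Ptf1a over GFP-only, was -0.34. Without the strongest member, C1qb, the sums were 12.27 FPKM in Ptf1a cells and 15.38 FPKM in GFP-only cells, a log2 ratio of -0.33.

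Meningeal markers divided. Lgals1, the sugar-binding protein galectin-1 (chromosome 15, 78757155 to 78760895, mm9), was the most abundant of the 38 and rose, with 39.2 FPKM in Ptf1a cells and 16.7 FPKM in GFP-only cells. Its deposited log2 fold of 1.23 had an implied SE of 0.29 (q = 3.29e-04). Galectin-1 is made by many cell types, including neural progenitors. Dcn, the collagen-binding proteoglycan decorin (chromosome 10, 96942134 to 96980796, mm9), fell, with 1.79 FPKM in Ptf1a cells and 3.11 FPKM in GFP-only cells (deposited log2 fold -0.80, implied SE 0.55, q = 0.00785). Lum, the related proteoglycan lumican, lies 47.3 kb from Dcn and had 0.390 FPKM in Ptf1a cells and 0.742 FPKM in GFP-only cells (q = 0.0692). Ptgds, the prostaglandin D synthase of meninges and choroid plexus, had 3.92 FPKM in Ptf1a cells and 5.90 FPKM in GFP-only cells (q = 0.0690). Foxc1, a forkhead factor needed for the meninges, had 0.0304 FPKM in Ptf1a cells and was listed at 0 in GFP-only cells. The class summed to 45.3 FPKM in Ptf1a cells and 26.4 FPKM in GFP-only cells; without Lgals1 the sums were 6.13 and 9.75 FPKM, so the direction of the sum rests on that gene.

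Further markers of the same cell classes were counted from lists that hold none of the 38. Among 30 further endothelial genes 10 were tested, 3 rose and 1 fell; these 40.0% called lie near the 37.7% of all tested genes, and none remained called by the normal p (0 risen, 0 fallen). Ecscr, an endothelial surface protein, had 1.69 FPKM in Ptf1a cells and 0.837 FPKM in GFP-only cells (q = 0.0447). Ctla2a, a protease inhibitor-like gene, had 2.57 and 1.32 FPKM in Ptf1a and GFP-only cells (q = 0.00970), and Mfsd2a, a lipid carrier of the blood-brain barrier, had 5.08 and 3.27 FPKM (q = 0.00595). Bsg, the broadly used surface protein basigin, fell, with 231 FPKM in Ptf1a cells and 283 FPKM in GFP-only cells, while Itm2a (20.5 and 19.6 FPKM) and the glucose transporter gene Slc2a1 (5.76 and 4.84 FPKM) were not called.

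Of 20 further mural genes 9 were tested, 6 rose and none fell (0 also at an unadjusted p under 0.05 and by the normal p). The risen were 66.7% of those tested, against 18.7% of all tested genes. That share was 24.4% under 5 FPKM and 13.4% at 5 FPKM or more, where 4 of the 9 lay. By the normal p, 4 rose. S1pr3, a sphingosine phosphate receptor, had 2.14 FPKM in Ptf1a cells and 0.0853 FPKM in GFP-only cells. Angpt1, the secreted agonist of the Tek receptor, had 32.7 FPKM in Ptf1a cells and 3.22 FPKM in GFP-only cells (deposited q = 3.29e-04). Cox4i2, an alternative subunit of cytochrome oxidase, had 17.9 FPKM in Ptf1a cells and 2.76 FPKM in GFP-only cells. Myl9, a regulatory myosin light chain, had 8.19 FPKM in Ptf1a cells and 1.88 FPKM in GFP-only cells. In Ptf1a cells Angpt1, Cox4i2 and Myl9 stood above all 8 mural markers, of which the highest, Vtn, had 2.87 FPKM. Which cells made these transcripts was not tested. Ndufa4l2 (1.65 and 1.74 FPKM) and Higd1b (1.49 and 1.47 FPKM) were not called. The remaining 11 genes had no test, among them the smooth muscle genes Myh11, Des, Tagln and Cnn1, which the naming rule does not select.

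Among 25 further microglial genes found in the table (of 26 listed) 14 were tested, with 3 risen and 3 fallen (21.4% each, against 18.7% and 19.1% of all tested genes). By the normal p, 1 rose (Sall1) and 1 fell (Coro1a). Coro1a, which the naming rule does not select, had 98.7 FPKM in Ptf1a cells and 186 FPKM in GFP-only cells. None of the 11 microglial markers exceeded 4.90 FPKM (Tyrobp in GFP-only cells), and which cells made Coro1a was not tested. Sall1, a zinc finger factor of microglia and of neural progenitors, had 1.27 FPKM in Ptf1a cells and 0.257 FPKM in GFP-only cells. Olfml3, a secreted olfactomedin-like protein, had 1.60 and 0.556 FPKM in Ptf1a and GFP-only cells, and Hpgds, the prostaglandin D synthase of haematopoietic cells, had 1.43 and 0.623 FPKM. Pf4, a platelet and macrophage chemokine, fell, with 1.94 FPKM in Ptf1a cells and 4.49 FPKM in GFP-only cells (q = 0.0200), while Fcgr3 was not called. Of 20 further meningeal genes 7 were tested, 2 rose and 1 fell (28.6% and 14.3%), and by the normal p 1 rose and 0 fell. The retinoic acid carrier Crabp2 had 5.18 FPKM in Ptf1a cells and 0.979 FPKM in GFP-only cells, and Igf2 had 0.718 and 0.278 FPKM. Igfbp2, an IGF-binding protein, fell, with 19.3 FPKM in Ptf1a cells and 31.6 FPKM in GFP-only cells, while Cxcl12 (26.8 and 31.5 FPKM) and Fn1 were not called.

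**Figure D3:**
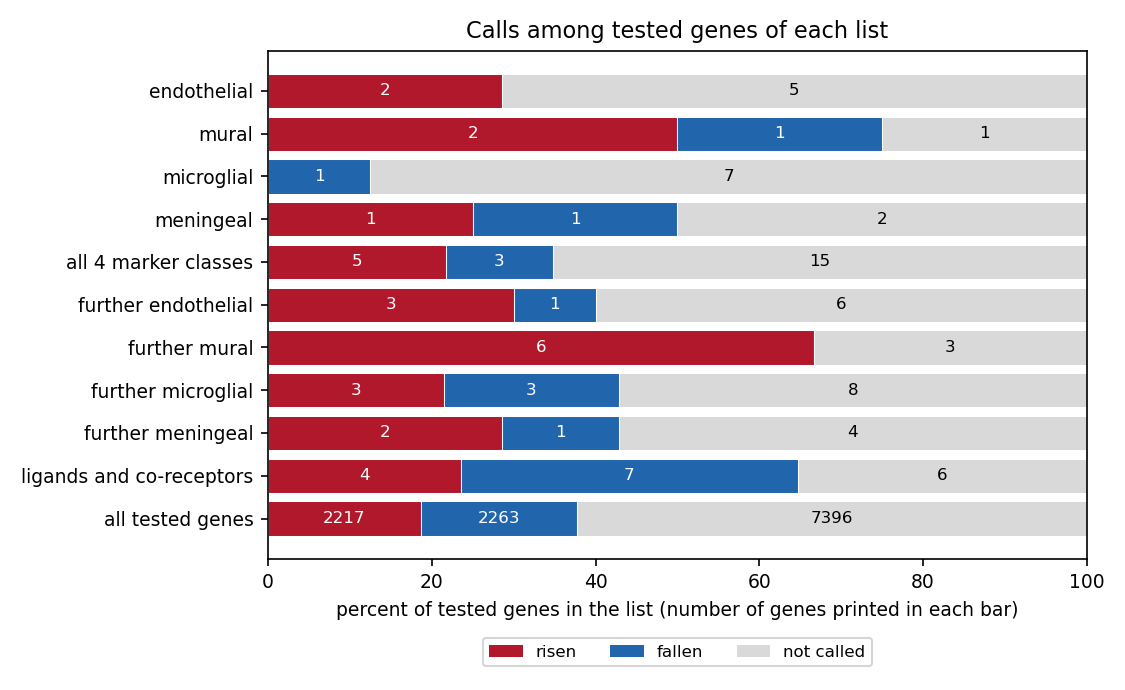
Risen (red), fallen (blue) and uncalled (grey) genes as a percent of the tested genes of each list, with the number of genes printed in each bar and all tested genes in the lowest bar. The 23 tested markers (5 risen, 3 fallen) divide much like all tested genes, the further mural list has 6 of 9 risen, and the ligand list has 7 of 17 fallen.

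Ligands and related genes were compared last, since vessels and microglia respond to signals made by neural cells. Of 17 tested genes among 23 ligands, guidance cues and co-receptors, 4 rose and 7 fell. These were 23.5% and 41.2%, against 18.7% risen and 19.1% fallen of all tested genes. At 5 FPKM or more, where 7 of the 17 lay, 13.4% of tested genes rose and 29.5% fell. Under 5 FPKM, where the other 10 lay, 24.4% rose and 7.75% fell. By the normal p 2 rose (Angpt2 and Tgfb2) and 1 fell (Cd200). Both ligands of Tek in the lists rose: beside Angpt1, Angpt2 rose, with 2.83 FPKM in Ptf1a cells and 0.252 FPKM in GFP-only cells (deposited log2 fold 3.49, q = 3.29e-04). The cytokine gene Tgfb2 rose too, with 3.12 and 1.10 FPKM in Ptf1a and GFP-only cells. Figf, or VEGF-D, fell, with 0.902 FPKM in Ptf1a cells and 1.84 FPKM in GFP-only cells (q = 0.00938). Cd200, a neuronal ligand that restrains microglia, fell, with 50.3 FPKM in Ptf1a cells and 80.7 FPKM in GFP-only cells (q = 3.29e-04). Vegfb (9.75 and 7.47 FPKM) and Wnt7a (1.80 and 1.52 FPKM) were not called.

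The remaining ligands were added because they bind a marker receptor, outside the naming rule and after their values were seen. Pgf, a ligand of Flt1, fell, with 5.13 FPKM in Ptf1a cells and 8.23 FPKM in GFP-only cells (q = 0.00137), whereas Vegfa was not called, with 0.731 and 0.809 FPKM. Pdgfb, the ligand of Pdgfrb, had 0.985 FPKM in Ptf1a cells and 0.0175 FPKM in GFP-only cells, and was not called (q = 0.153, implied SE 2.15 for a deposited log2 fold of 5.82). Csf1 (0.565 and 0.388 FPKM) and Cx3cl1 (1.71 and 1.50 FPKM), ligands of Csf1r and Cx3cr1, were not called, and Il34, the second Csf1r ligand, had no test.

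**Figure D4:**
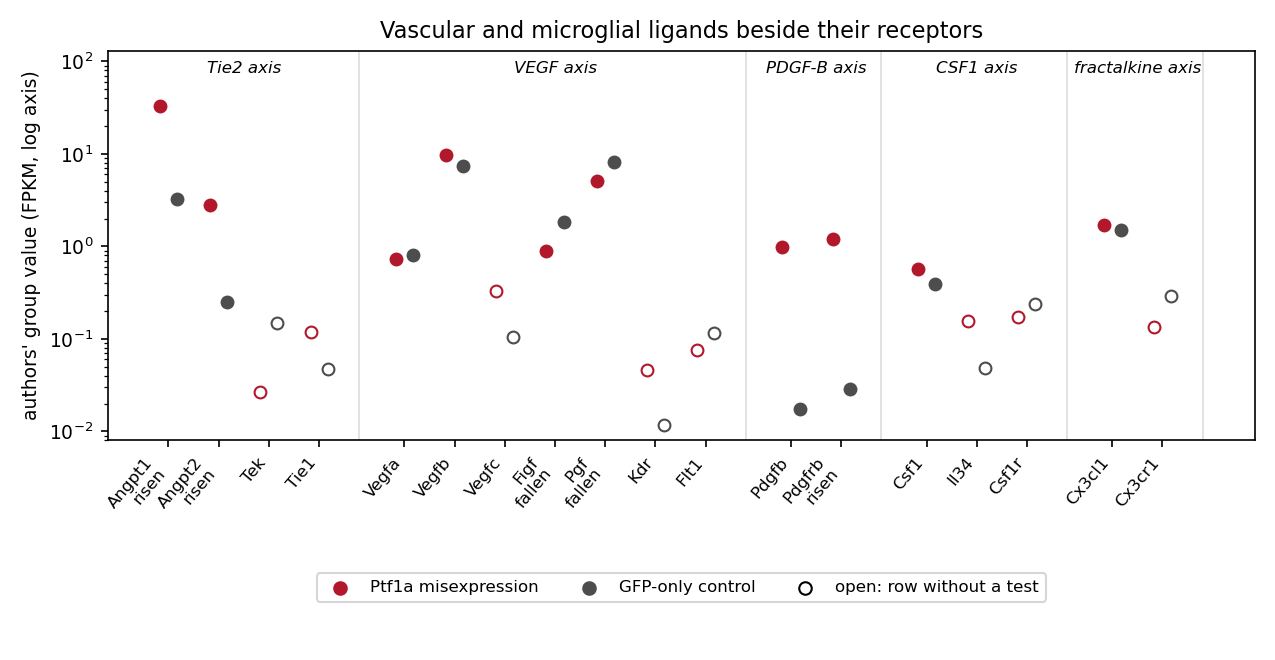
Ligands and receptors grouped by signalling family, as group values in FPKM on a log axis, with Ptf1a cells in red to the left of GFP-only cells in grey. Open circles are rows without a test, and a ligand need not bind every receptor of its group. Angpt1 and Angpt2 are higher in Ptf1a cells, Figf and Pgf are lower, and every receptor other than Pdgfrb stays under 0.3 FPKM in both groups.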

How the data were processed

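RNA of 5 samples of GFP-sorted cortical cells was amplified from 2.1 to 7.8 ng of total RNA and read from both ends at 50 bp, per the labels' protocols. Reads were processed with Cuffdiff, Cufflinks 2.1.1, TopHat2 2.0.8 and CASAVA 1.8.2 on mm9, per the submitters' processing notes; the annotation and settings were not given in the sources used here. The authors deposited a merged FPKM per group and gene, their log2 fold, a signed test statistic (a score), and a p-value and q-value, per the file headers. The heading PIG was read as the Ptf1a construct, the other of 2 groups. Amplification from little RNA adds variation to weak genes.

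The 38 members and all lists were chosen with earlier results of these data known, so no list test was made. Calls used the deposited q under 0.05, adjusted by the authors over 11876 tested genes. Log2 differences used a pseudocount of 0.1, which understates changes of weak genes. Median implied SE was 0.459 for tested genes between 1 and 5 FPKM and 0.275 from 5 FPKM up. A 0 in the table can be a failed estimate, since 16 rows marked as having too much data were listed at 0 in a group. Starts were read as counting from 0 and printed from 1, because 4968 of 20792 loci matched by symbol have an annotated GENCODE M21 transcript of that length, and 629 if starts count from 1. All members were named; from each other list, up to 4 called genes with the largest difference and up to 2 uncalled genes with the highest mean were named. A gene this rule selects is not reported here. It is not known whether samples came from separate litters, and the settings of the authors' test were not given. Which spread the deposited p-values measure is therefore unknown. The calculation of the normal p and its adjustment was checked on simulated normal statistics. Such a check cannot show whether a normal p suits the authors' test statistic. Calculations used Python 3.11.15, pandas 2.3.3, numpy 2.4.6 and scipy 1.17.1.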

Additional observations from a re-analysis of the deposited data

How the results depend on the processing

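No paired analysis was possible because the deposited table holds merged group values, and leaving out a sample was not run for the same reason. The 8 calls depend on the test. Calls from a normal p (two-sided, from the authors' test statistic, Benjamini-Hochberg adjusted over all genes with a statistic) numbered 724 genes (6.12%), among them 2 markers. These were Pdgfrb at an adjusted value of 0.00391 and Lgals1 at 0.00103. It thus left 2 risen and 0 fallen, with 0 risen endothelial, 1 risen mural and 0 fallen mural, microglial or meningeal; the adjusted values of the other 6 lay between 0.210 and 0.622. At a q under 0.01, Ramp2 and Kcnj8 were lost, leaving 1 risen endothelial and 0 fallen mural markers. At a q under 0.10 the risen numbered 6, of which 3 were endothelial (Cldn5 added). The fallen also numbered 6, of which 2 were microglial (Aif1 added) and 3 meningeal (Lum and Ptgds added). Of all tested genes 22.2% rose and 22.7% fell at that q. Among genes of at least 5 FPKM, 1 marker was called, the risen Lgals1, with 0 risen endothelial, 0 risen mural and 0 fallen in any class; under 5 FPKM, a range chosen after seeing the data, 0 meningeal markers rose. With a 2-fold minimum, all 5 risen markers and 1 fallen marker, Tyrobp, were left, with 0 fallen mural and 0 fallen meningeal. These were 6 of the 23 tested markers, against 8.54% of all tested genes (6.67% risen and 1.87% fallen). That share was not computed for genes under 5 FPKM alone, where 20 of the 23 lay. The 5 FPKM and 2-fold minimums remove genes by construction. The log2 ratio of summed meningeal levels was 0.78 and became -0.67 without Lgals1; over all 38 markers it was 0.39 and became -0.08. Counts at 1 FPKM or more, rows with several symbols (0 held a marker), other pseudocounts, centring (a shift of -0.04) and tested members alone changed no count by over 1.5 times and turned no class median. The endothelial and mural medians, 0.44 and 0.64, were 0.07 and 0.12 with a pseudocount of 1. Markers under 0.5 FPKM had no test, so changes among them were not detectable here.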
